A study of Mus musculus with 7 samples.

Results

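The genes described here are 42 cell cycle genes in 3 groups, taken as a named list. They are 18 S members, which act around DNA replication, 21 G2/M members, which act from the end of replication through mitosis, and the 3 D cyclins Ccnd1, Ccnd2 and Ccnd3. Of the 42, 40 were listed in at least 1 of the 7 libraries and 35 in all 7, out of 17784 genes listed in any library. Ung and Ube2c were in no table of counts used here, so their levels are not analysed here, but their promoters are counted below. Fen1 was listed in PC and PC-2F only, with 1 UMI in each.

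The study took embryonic fibroblasts (MEF) and cerebral pericytes (PC) of C57BL/6 mice, transduced them with viruses that carry transcription factors of the oligodendrocyte lineage, and set them beside primary oligodendrocyte progenitor cells from brain (pOPC), to ask how far such cells become induced oligodendrocyte progenitors and what they retain of their donor. MEF, from embryo, PC, from brain, and pOPC were untreated. MEF-2F and PC-2F received Olig2/Sox10, and MEF-3F and PC-3F received Olig2/Sox10/Nkx6.2. The protocol puts MEF in MEF medium, PC in pericyte medium, and pOPC and induced cells in OPC medium, so medium and transduction cannot be told apart in any comparison with a donor. Each population was 1 library of single cells caught in droplets, with the 3′ ends of transcripts counted by unique molecular identifiers (UMIs). A comparison therefore sets 2 libraries side by side, with no replicate check and no test, and every interval given is an exact 95% interval that covers counting error only.

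Replication and division are run by successive waves of gene expression. In G1 the D cyclins activate Cdk4 and Cdk6, which relieve E2F factors from repression by the retinoblastoma family, and E2F target genes (cyclin E, the MCM helicase that licenses origins, and enzymes that supply nucleotides) then rise towards S phase. Later, B-Myb and FoxM1 with the MuvB complex turn on genes of mitosis such as Ccnb1, Cdk1, Plk1 and Top2a. Oligodendrocyte progenitors are the main dividing glial cells of the brain after birth, and they leave the cycle when they differentiate into myelinating cells.

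The promoters of the members were searched for letters tied to each wave. Promoters of 300 bases (250 before to 50 after the start) were in the RefSeq table, build GRCm38.p6, for 34 of the 42 members; no entry was found for Ccne2, Gins2, Ccna2, Aurkb, Mcm4, Tpx2, Ccnd1 and Ccnd2. E2F letters (TTTGGCGC, TTTCGCGC, TTTCCCGC or TTTGCCGC, either strand) were in the promoters of 5 of 15 S members (33.3%), 1 of 18 G2/M members (5.56%) and 626 of 27025 genes in the table (2.32%). Those 5 were Mcm3, Mcm5, Mcm6, Mcm7 and Cdc6, and the G2/M member was Cdk1. The letters of the cell cycle homology region, CHR (TTTGAA or TTTAAA), which the MuvB complex binds, were in 16 of 18 G2/M promoters (88.9%), 5 of 15 S promoters (33.3%) and 27.8% of all. CCAAT was in 15 of 18 G2/M promoters, 10 of 15 S promoters and 37.9% of all. CHR and CCAAT letters stood together in 14 of 18 G2/M promoters (77.8%), 3 of 15 S promoters (20%) and 10.9% of all. Ccnd3, the 1 D cyclin with an entry, held none of these letters. The 4 promoters below show the 250 bases before the start, for the 2 S members with E2F letters and the 2 G2/M members with CHR letters there that had the highest mean level. Capitals mark E2F letters in Mcm6 and Mcm5, and CHR and CCAAT letters in Top2a and Cenpa, on either strand; overlapping matches run together.
Mcm6: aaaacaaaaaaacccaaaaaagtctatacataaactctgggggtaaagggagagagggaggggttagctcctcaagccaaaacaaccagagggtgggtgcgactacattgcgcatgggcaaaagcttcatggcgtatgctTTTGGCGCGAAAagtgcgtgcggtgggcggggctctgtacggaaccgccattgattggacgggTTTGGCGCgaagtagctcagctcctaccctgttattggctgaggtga
Mcm5: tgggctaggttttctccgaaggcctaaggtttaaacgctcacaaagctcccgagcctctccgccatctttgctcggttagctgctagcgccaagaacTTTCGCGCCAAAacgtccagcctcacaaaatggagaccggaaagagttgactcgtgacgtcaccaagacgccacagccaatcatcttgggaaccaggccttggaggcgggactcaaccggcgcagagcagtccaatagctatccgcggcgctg
Top2a: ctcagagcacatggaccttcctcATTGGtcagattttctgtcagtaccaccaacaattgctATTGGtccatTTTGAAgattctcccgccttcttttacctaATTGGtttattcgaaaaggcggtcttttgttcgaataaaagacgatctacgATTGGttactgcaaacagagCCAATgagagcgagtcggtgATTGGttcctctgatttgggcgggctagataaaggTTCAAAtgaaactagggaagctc
Cenpa: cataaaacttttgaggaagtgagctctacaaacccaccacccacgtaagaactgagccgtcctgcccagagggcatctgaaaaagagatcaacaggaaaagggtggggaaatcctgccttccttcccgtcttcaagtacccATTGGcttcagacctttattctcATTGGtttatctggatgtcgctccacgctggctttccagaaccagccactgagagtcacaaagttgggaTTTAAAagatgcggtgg
Mcm6 lies at chr1:128359706-128359955 on the minus strand, Mcm5 at chr8:75109259-75109508 on the plus strand, Top2a at chr11:99024190-99024439 on the minus strand and Cenpa at chr5:30666636-30666885 on the plus strand. A match of letters is a description, not a binding site.

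The libraries held 82 (MEF-2F) to 290 (PC) cells with 229938 to 1292320 UMIs in all, and the median per cell ran from 1866 UMIs in MEF-3F to 6259 in PC-2F. No barcode was shared between libraries. Levels are in CPM, the UMIs of a gene in all cells of a library divided by the library total and scaled to a common total of UMIs. A count of 0 allows a level of up to 3 UMIs, which is 13.0 CPM in MEF-2F and 2.32 CPM in PC. All 7 OPC markers had a UMI in pOPC and all 6 fibroblast markers in MEF, but only 3 of 6 pericyte markers in PC (Pdgfrb, Cspg4 and Anpep), where Rgs5, Kcnj8 and Abcc9 were not listed. The pericyte list did not set PC apart. It summed to 402 CPM in PC, 409 in MEF-2F, 373 in MEF (6 of 6), 361 in pOPC and 288 in MEF-3F. PC-2F with 805 CPM and PC-3F with 1099 CPM stood above PC. Markers of other cell types moved between donor and converted libraries: mesothelial markers (2 of 3 with UMIs) summed to 452 CPM in PC, with Krt19 in 38.3% and Msln in 23.1% of cells, and were not listed in PC-2F or PC-3F. Schwann cell markers summed to 4532 CPM in MEF-2F, 1381 for MEF-3F and 1034 for PC-2F, each with 4 of 4, and to 1581 for PC-3F (2 of 4), against 64.6 in MEF (3 of 4) and 12.4 in PC (1 of 4). Astrocyte markers summed to 973 CPM in MEF-3F (3 of 3) and 2.53 in MEF (1 of 3). Of these, Aldoc alone stood at 947 CPM in MEF-3F. Aldoc was not particular to MEF-3F, with 487 CPM in PC-3F, 411 in pOPC, 255 in PC-2F and 43.5 in MEF-2F. The part of cells with these markers in the differences from the donors was not tested. The tables of PC, MEF-2F and MEF-3F each join 2 runs of barcodes, called blocks here, which the labels do not explain. Of the members, 13 S, 19 G2/M and 3 D cyclins reached a mean of 20 CPM over the 7 libraries and are called measured. Kif20b lay just under that mean and Ccnd3 just above it, and Cdc6, Ccne2, Slbp and Fen1 were the other listed members below it.

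pOPC carried by far the most message of both phases. The summed level of the S members was 3290 CPM (3151 to 3435) in pOPC, 2177 in PC, 2038 in PC-2F, 1536 in PC-3F, 999 in MEF, 413 (334 to 505) in MEF-2F and 408 (352 to 471) in MEF-3F. The ratio of MEF-2F to MEF-3F had an interval that holds 1, and those of PC-2F to PC, PC-3F to PC-2F, MEF to PC and MEF-2F to MEF did not. The summed level of the G2/M members was 6241 CPM (6048 to 6439) in pOPC, 2484 in PC, 2290.2 (2205 to 2378) in PC-2F, 2199 (2085 to 2317) in PC-3F, 906 (841 to 975) in MEF, 862 (779 to 951) in MEF-3F and 661 in MEF-2F. The intervals of PC-2F and PC-3F overlapped, and so did those of MEF and MEF-3F. D cyclins spanned less: 1470.5 CPM in pOPC, 1208 in PC, 1201 in MEF, 763 in PC-2F, 728 in PC-3F, 531 in MEF-2F and 502 in MEF-3F. The S and D cyclin sums were lower in every converted library than in its donor, and so was the G2/M sum except in MEF-3F, where the interval of its ratio to MEF holds 1.

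**Figure D1:**
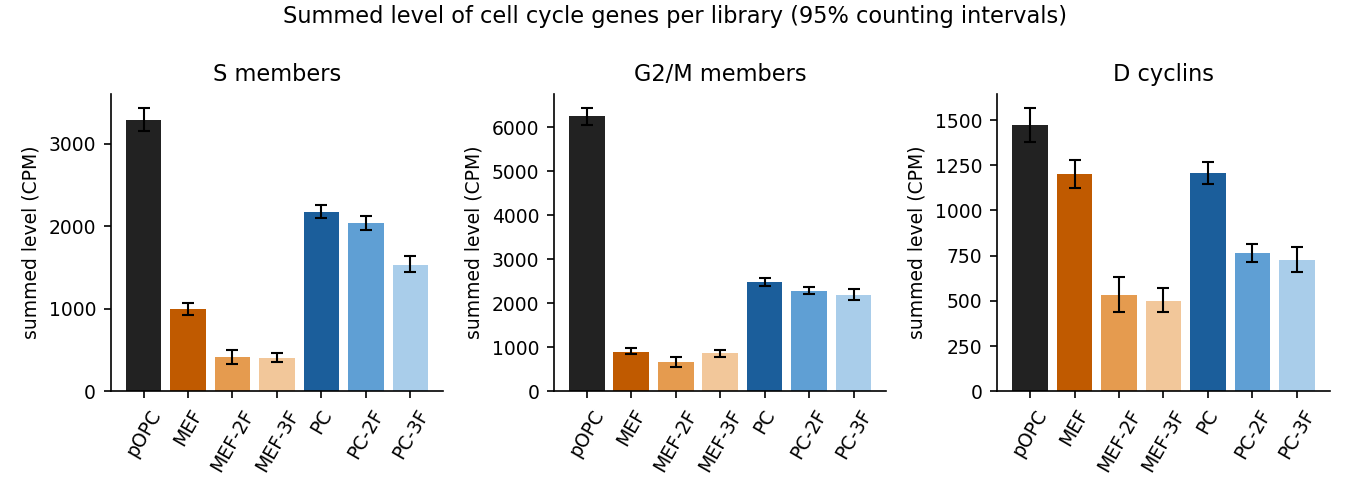
Summed level in CPM (y axis, from 0) of the S members, the G2/M members and the D cyclins in each of the 7 libraries; bars are library sums and lines are exact 95% counting intervals. pOPC is highest in all 3 panels, and MEF-2F and MEF-3F are lowest for S members at 413 and 408 CPM.

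Among S members, those of the MCM helicase and of nucleotide supply carried most UMIs. Mcm5, a helicase subunit, stood at 288 CPM in pOPC, 200.4 in PC, 200.2 in PC-2F, 158 in PC-3F, 57.0 in MEF, 15.3 in MEF-3F (7 UMIs) and 13.0 in MEF-2F (3 UMIs). PC and PC-2F were alike for Mcm5 within counting error. Pcna, the sliding clamp of DNA polymerase, stood at 291 CPM in pOPC, 232 in PC, 221 in PC-2F, 173 in PC-3F, 64.6 in MEF, 50.2 in MEF-3F and 34.8 in MEF-2F, where the intervals of the 3 fibroblast libraries overlap. Rrm2, the subunit of ribonucleotide reductase that accumulates in S phase, stood at 552 CPM in pOPC, 197 in PC, 177 in PC-2F, 123 in PC-3F and 111 in MEF, with 43.5 in MEF-2F and 15.3 in MEF-3F. It was the highest S member of pOPC, and its pOPC level was 2.81-fold that of PC. Ccne1, which encodes the cyclin that starts S phase with Cdk2, stood at 71.2 CPM in pOPC, 69.6 in MEF, 34.8 in PC, 33.4 in PC-2F, 18.9 in PC-3F, 17.4 in MEF-2F and 15.3 in MEF-3F. It was the S member in which MEF came nearest to pOPC. Ccne2, its paralog, was low throughout, from 4.35 CPM in MEF-2F (1 UMI) to 17.5 CPM in PC-2F (21 UMIs), and no library stood apart. Of the 13 measured S members 11 were highest in pOPC; Mcm3 was highest in PC-2F (203 CPM against 183 in pOPC) and Prim1, a primase subunit, in PC-3F (58.3 against 55.3), both with overlapping intervals. Gins2 was not listed in MEF-3F, and neither Cdc6 nor Slbp was listed in MEF-2F.

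Mki67, which coats mitotic chromosomes and is the usual label of cycling cells, stood at 367 CPM in pOPC, 121 in PC-3F, 105 in PC-2F, 76.6 in PC, 52.2 in MEF-2F, 48.1 in MEF and 48.0 in MEF-3F. It ran against the order of the G2/M sum in the pericyte libraries, with PC lowest of the 3. Top2a, the topoisomerase that untangles replicated DNA, stood at 979 CPM in pOPC, 466 in PC-3F, 465 in PC-2F, 286 in PC and 147 in MEF, with 144 in MEF-2F and 91.6 in MEF-3F. It was also higher in both converted pericyte libraries than in PC, by 1.63-fold in each. Cdk1, the kinase of mitotic entry, stood at 364 CPM in pOPC, 163 in PC-2F, 156 in PC, 140.2 in PC-3F, 78.5 in MEF, then 73.9 in MEF-2F and 58.9 in MEF-3F, and the levels within each donor's libraries overlapped. Ccnb1, its cyclin partner, stood at 558 CPM in pOPC, 193 in PC, 128 in PC-2F, 115 in PC-3F, 69.8 in MEF-3F, 31.6 in MEF and 8.70 in MEF-2F (2 UMIs). Of the 19 measured G2/M members 18 were highest in pOPC, and the exception was Ccnb2, a second B-type cyclin, at 162 CPM (141 to 185) in PC against 111 (86.3 to 140.0) in pOPC.

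**Figure D2:**
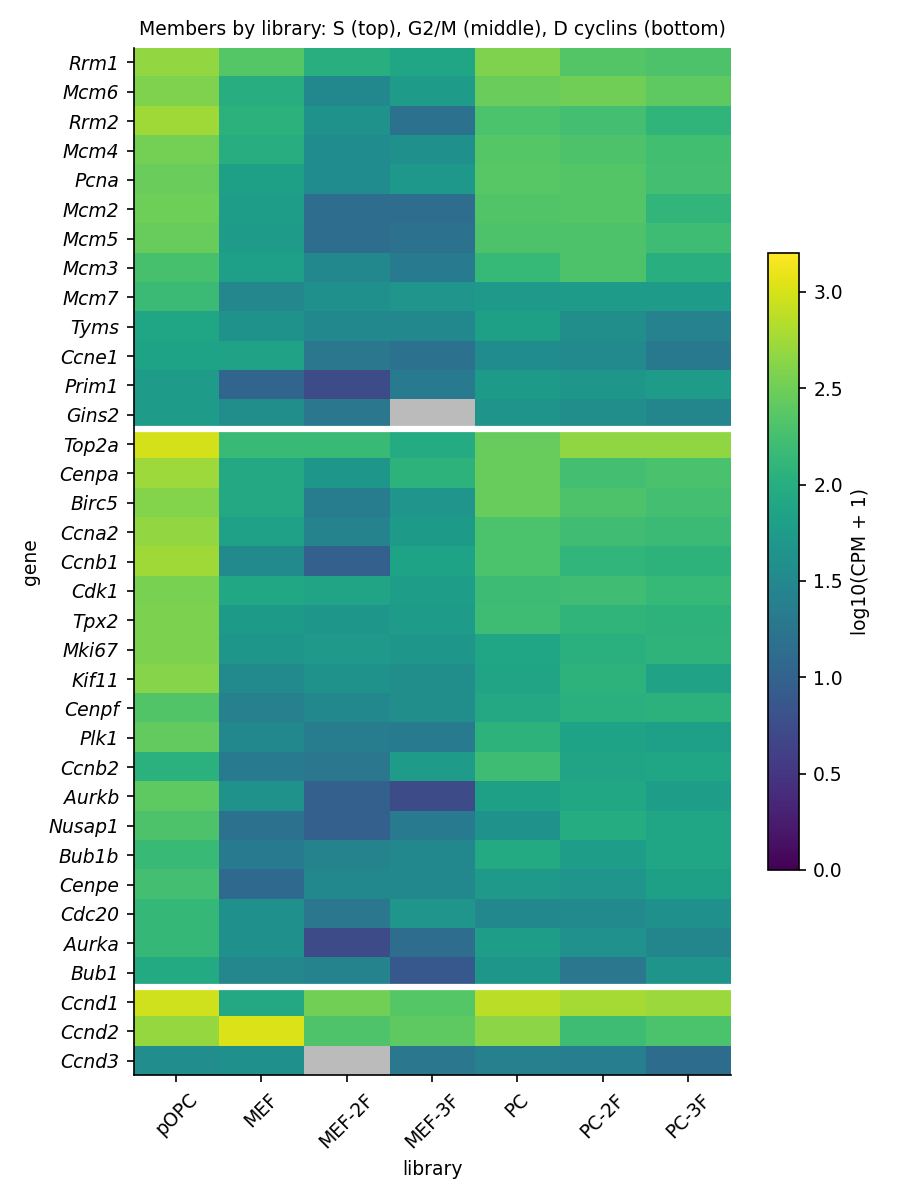
Level of each of the 35 measured members (rows; S members at the top, G2/M members in the middle, D cyclins at the bottom, each ordered by mean level) in each of the 7 libraries (columns), as log10(CPM + 1); grey cells are genes not listed in that library. The pOPC column is brightest for most genes, and Ccnd1 is darkest and Ccnd2 brightest in MEF.

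The D cyclins did not move together. Ccnd1 (chr7:144929931-144939925, GRCm38) stood at 939 CPM in pOPC, 740 in PC, 580.5 in PC-2F, 517 in PC-3F, 326 in MEF-2F, 229 in MEF-3F and 83.6 in MEF, so that MEF was lowest and both converted fibroblast libraries were above their donor. Ccnd2 (chr6:127125162-127152193) stood at 1079 CPM in MEF, 495 in pOPC, 444 in PC, 255 in MEF-3F, 204 in MEF-2F, 198 in PC-3F and 160.1 in PC-2F, so that all 4 converted libraries were below every unconverted one. MEF held 8.85-fold less Ccnd1 (6.90 to 11.5) and 2.43-fold more Ccnd2 (2.18 to 2.70) than PC. Ccnd3 was sparse, from 12.6 CPM in PC-3F (8 UMIs) to 39.2 CPM in MEF (31 UMIs), and it was not listed in MEF-2F. Overlapping genes are annotated at all 3 D cyclins, and reads there could be shared. The same holds for other members, among them Mcm7, Rrm1, Top2a and Mki67.

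Converted fibroblasts held less S message than MEF in both libraries, and less G2/M message in MEF-2F. A difference was called where it reached 2-fold and its interval left out 1. In MEF-2F against MEF, 7 of 13 measured S members were lower and 0 higher, beside 11.4% of all 7996 measured genes lower and 19.1% higher. The median log2 ratio was -1.14 for S members and 0.20 over all measured genes. Mcm2 was 4.75-fold lower (1.53 to 23.8; 3 against 49 UMIs), Mcm5 4.37-fold (1.4 to 22) and Ccne1 4-fold (1.48 to 15.2), and Mcm6, Mcm4, Rrm2 and Rrm1 were 2.25- to 3.24-fold lower. Rrm1, the other reductase subunit, rested on the most UMIs, 23 against 178. Pcna, Tyms, Mcm3, Mcm7, Prim1 and Gins2 did not pass, and Mcm7 had a higher level in MEF-2F (39.1 against 29.1 CPM, from 9 and 23 UMIs).

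In MEF-3F against MEF, 8 of 13 measured S members were lower and 0 higher, beside 10.7% of all measured genes lower and 21.5% higher; the S median was -1.59 and that of all measured genes 0.25. Gins2 is among the 8 because it was not listed in MEF-3F and was read as 0. Rrm2 was 7.29-fold lower (3.40 to 18.7), Mcm2 4.74-fold (2.03 to 13.5) and Ccne1 4.56-fold (2.07 to 11.9), with Mcm5, Mcm3, Rrm1 and Mcm4 2.51- to 3.73-fold lower. The S members that were lower in both converted fibroblast libraries were Mcm2, Mcm4, Mcm5, Rrm1, Rrm2 and Ccne1, and both comparisons share the MEF library. For MEF-2F the S sum was lower by 2.42-fold (1.95 to 3.02), and for MEF-3F by 2.45-fold (2.08 to 2.89).

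The G2/M sum was 1.37-fold lower (1.15 to 1.64) in MEF-2F than in MEF and 1.05-fold lower (0.929 to 1.19) in MEF-3F. In MEF-2F, 4 of 19 measured members were lower and 0 higher, beside the 11.4% and 19.1% of all measured genes above. They were Aurka, 9.02-fold from 1 against 31 UMIs (1.5 to 368), Aurkb, 4.95-fold from 2 against 34 UMIs (1.27 to 42.5), Birc5, 3.84-fold (1.57 to 12.2), and Ccna2, 2.57-fold (1.11 to 7.32). Aurka and Aurkb encode mitotic kinases of spindle poles and of chromosomes, Birc5 encodes survivin, which works with Aurkb, and Ccna2 encodes the cyclin of S and G2. The median G2/M log2 ratio was -0.14. Without the 1 cell in each library with the most G2/M UMIs, the log2 ratio of the sum went from -0.46 to -0.83.

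In MEF-3F, 3 of 19 measured G2/M members were lower than in MEF and 3 higher, beside 10.7% and 21.5% of all measured genes, and the median was 0.07. Aurkb was 9.86-fold lower from 2 against 34 UMIs (2.53 to 84.7), Bub1, a kinase of the spindle checkpoint, 4.45-fold from 3 against 23 UMIs (1.34 to 23.1), and Aurka 3.00-fold (1.23 to 8.79). Ccnb2 was 2.80-fold higher (1.45 to 5.59), Cenpe, a kinetochore motor, 2.68-fold (1.08 to 7.02), and Ccnb1 2.21-fold (1.27 to 3.88). These 3 rises rest on the second block of MEF-3F: with the first block alone their log2 ratios were -1.92, -1.12 and -2.55. The 2 blocks of MEF-3F differed for most of the set. The first block, of 40 cells with a median of 1545 UMIs, had 155 CPM (84.6 to 259.8) of G2/M and 188 CPM (110 to 301) of S members, and no Mki67 UMI; the second, of 121 cells with a median of 1946 UMIs, had 1036 CPM (934 to 1145) and 462 CPM (395 to 537), with 22 Mki67 UMIs. D cyclins ran the other way, at 1028 CPM (830.1 to 1259.9) in the first block and 372 (313 to 440.3) in the second, Ccnd1 at 464 against 171 CPM and Ccnd2 at 542 against 185. Olig2 was at 155 CPM in the first block and 372 in the second. The S sum was lower than in MEF with either block, and the G2/M sum was lower with the first (log2 -2.55) and 0.19 above MEF with the second.

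**Figure D3:**
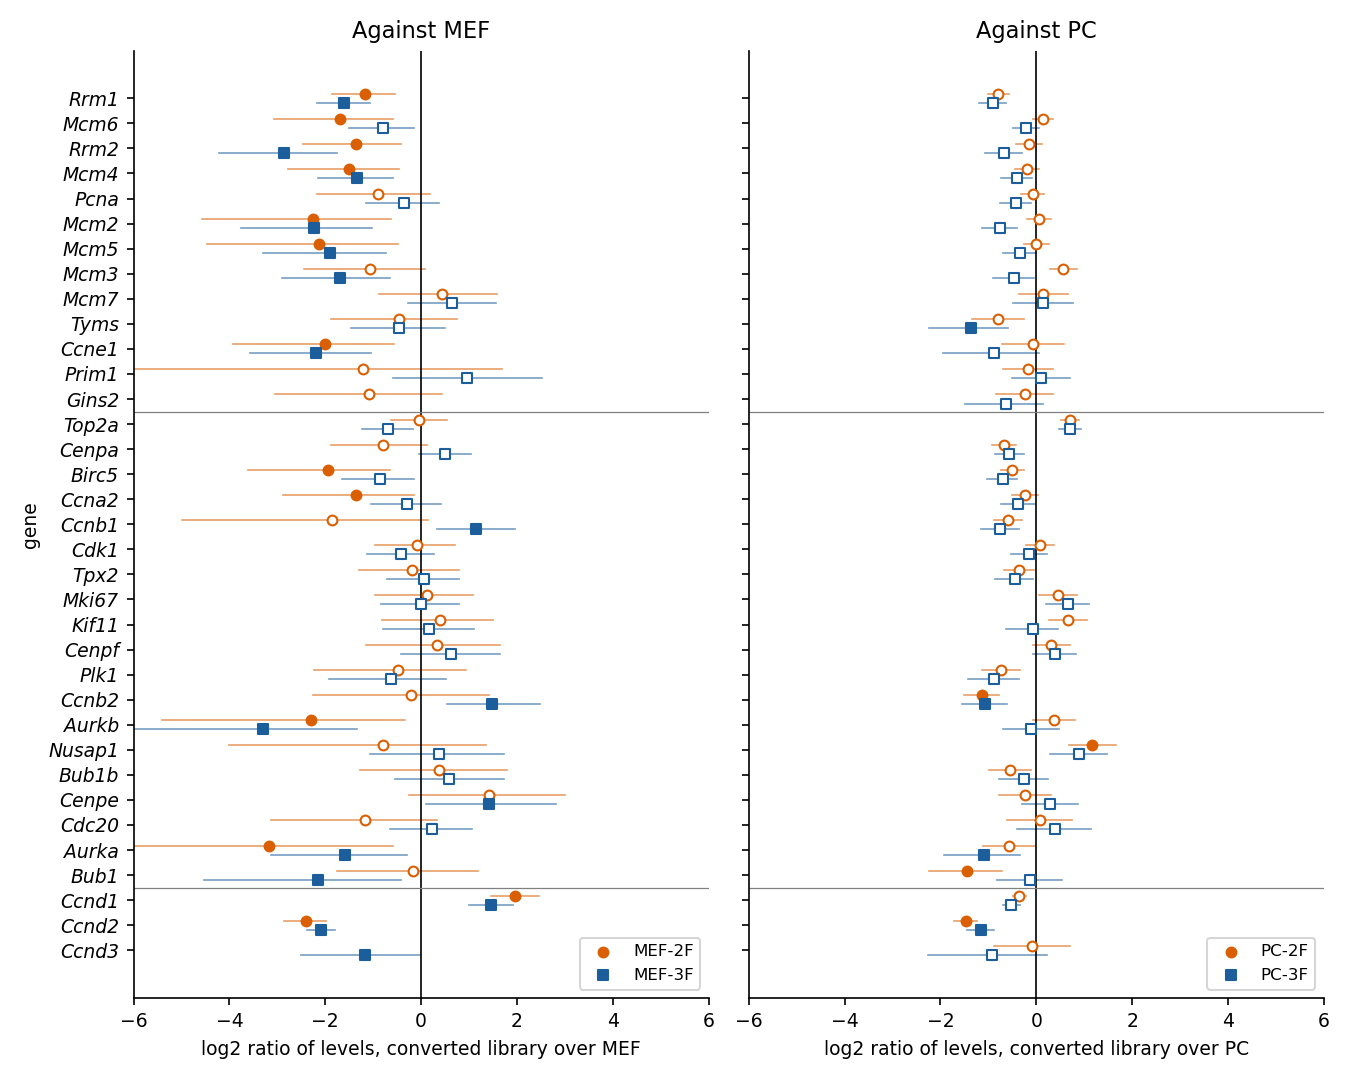
Log2 ratio of levels (x axis) of each measured member (rows), MEF-2F and MEF-3F over MEF on the left and PC-2F and PC-3F over PC on the right, with exact 95% counting intervals; filled points were called (2-fold or more and an interval without 0 on this scale), open points were not, and members not listed in 1 of the 2 libraries have no point. S members lie mostly left of 0 against MEF and near 0 against PC, and Ccnd2 lies left of 0 in all 4 comparisons.

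Converted pericytes were nearer to PC: the G2/M sum differed little in both libraries and the S sum little in PC-2F, while the S sum of PC-3F was lower. In PC-2F, 0 of 13 measured S members were lower and 0 higher, beside 10% of all measured genes lower and 17.1% higher, and the S sum was 1.07-fold lower (1.01 to 1.13). The nearest to a call were Rrm1 at 219 against 379 CPM and Tyms at 37.5 against 65.0 CPM. In PC-3F, 1 of 13 was lower, beside 12.1% of all measured genes lower and 17.8% higher: Tyms, thymidylate synthase, 2.58-fold (1.5 to 4.72). The S sum of PC-3F was 1.42-fold lower (1.32 to 1.53) than in PC, and 11 of 13 measured S members had a lower level than in PC, Prim1 and Mcm7 being the exceptions. The median S log2 ratio was -0.07 in PC-2F and -0.46 in PC-3F, beside 0.08 over all measured genes in both.

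Among the G2/M members, 2 of 19 were lower and 1 higher in PC-2F than in PC, near or below the shares among all measured genes (10% lower and 17.1% higher). Bub1 was 2.74-fold lower (1.65 to 4.73) and Ccnb2 2.20-fold lower (1.71 to 2.86), and Nusap1, a spindle microtubule binder, was 2.26-fold higher (1.62 to 3.18). In PC-3F 2 of 19 were lower and 0 higher, beside 12.1% and 17.8% of all measured genes: Aurka by 2.13-fold (1.26 to 3.78) and Ccnb2 by 2.10-fold (1.53 to 2.92). Ccnb2 was the member lower in both, and both comparisons share PC. For PC-2F the G2/M sum was lower by 1.08-fold (1.03 to 1.14), and for PC-3F by 1.13-fold (1.06 to 1.20). Within the sum the measured members diverged. Ccnb1, Ccnb2, Cenpa, Birc5, Plk1, Tpx2, Ccna2, Aurka, Bub1 and Bub1b had a lower level in both converted libraries. Top2a, Mki67, Cenpf, Nusap1 and Cdc20 had a higher level in both. Cdk1, Cenpe, Aurkb and Kif11 differed in direction between PC-2F and PC-3F. All were short of 2-fold except the calls above, and not all were beyond counting error. Without Top2a, its highest member, the log2 ratio of the G2/M sum went from -0.12 to -0.27 for PC-2F, and for PC-3F from -0.18 to -0.34. The first block of PC, with 39 cells, held 1923 CPM of G2/M members against 2563 in the second, with 251 cells, and set against that block alone the G2/M log2 ratios turned positive, to 0.25 and 0.19.

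Ccnd2 was the D cyclin that differed from both donors. It was lower in all 4 converted libraries, by 5.28-fold (3.93 to 7.24) in MEF-2F, 4.22-fold (3.48 to 5.17) in MEF-3F, 2.77-fold (2.35 to 3.28) in PC-2F and 2.24-fold (1.84 to 2.74) in PC-3F. Against the first block of PC alone, where Ccnd2 stood at 269 CPM and not 469, the log2 ratios were -0.76 and -0.45, and with the first block of MEF-3F alone the ratio to MEF was -0.98, all short of 2-fold. Ccnd1 was 3.90-fold higher (2.77 to 5.52) in MEF-2F and 2.74-fold higher (2.00 to 3.79) in MEF-3F than in MEF, and it did not pass in the pericyte libraries (580.5 and 517 against 740 CPM). Ccnd3 was called lower in both fibroblast libraries, from 8 against 31 UMIs in MEF-3F and as not listed in MEF-2F. Its mean of 21.7 CPM just passed the cut for a measured gene, with MEF as its highest library at 39.2 CPM. Its calls as lower than MEF therefore lean on the library that let it pass. Of the 3 measured D cyclins, 1 was thus higher and 2 lower in both converted fibroblast libraries, and 1 lower in both converted pericyte libraries. Among all measured genes, 19.1% were higher and 11.4% lower in fibroblasts with 2 factors, and 21.5% and 10.7% with 3 factors. For pericytes these shares were 17.1% and 10% with 2 factors, then 17.8% and 12.1% with 3 factors.

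Set against pOPC, all measured S members (13 of 13) were lower in MEF-2F and in MEF-3F. PC-2F had 4 and PC-3F 7 lower S members, beside, in this order, 21.1%, 16.6%, 16.7% and 17.8% of all measured genes lower. Of the 19 measured G2/M members, 19, 18, 18 and 16 were lower in the same order, and none of either group was higher, beside 20.1%, 19.7%, 20% and 19.1% of all genes. The donors already differed from pOPC in this way: 10 S and 19 G2/M members were lower in MEF (28.7% of all measured genes) and 3 S and 14 G2/M members in PC (23.7%). These 6 comparisons share the pOPC library. The S sum was 7.96-fold lower than in pOPC in MEF-2F, 8.06-fold in MEF-3F, 1.61-fold in PC-2F and 2.14-fold in PC-3F, beside 3.29-fold in MEF and 1.51-fold in PC. The G2/M sum was 9.44-, 7.24-, 2.72- and 2.84-fold lower in the 4 converted libraries, beside 6.89-fold in MEF and 2.51-fold in PC.

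The largest gaps in S members were Rrm2 in MEF-3F, 36.1-fold below pOPC (17.3 to 90.5), and Mcm2 in MEF-2F and MEF-3F, 23.9-fold (8.05 to 117) and 23.8-fold (10.7 to 65.6). In the pericyte libraries Rrm2 led again, with PC-2F lower by 3.12-fold (2.62 to 3.72) and PC-3F by 4.49-fold (3.5 to 5.82), with Ccne1, Mcm7 and Rrm1 also lower in both. Mcm2, Mcm4, Mcm5, Mcm6 and Pcna did not pass in PC-2F. In G2/M members the widest gaps were Ccnb1 in MEF-2F, 64.2-fold from 2 UMIs (17.6 to 532), Aurkb in MEF-3F, 58.0-fold from 2 UMIs (15.8 to 483), Bub1 in PC-2F, 5.15-fold (3.07 to 8.94), and Kif11, the motor that separates spindle poles, in PC-3F, 6.07-fold (4.40 to 8.55). The exceptions were Bub1b, Ccnb2 and Cenpf in PC-3F, Ccnb2 in PC-2F and Ccnb2 in MEF-3F. Each had a lower level than in pOPC but fell short of 2-fold. Ccnd1 was lower than in pOPC in MEF-2F (2.88-fold, 2.26 to 3.71) and MEF-3F (4.10-fold, 3.33 to 5.09), and Ccnd2 in both converted pericyte libraries and MEF-2F (2.42- to 3.09-fold).

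Between 3 and 2 factors few members differed. In MEF-3F against MEF-2F, Ccnb1 (8.03-fold, 2.05 to 69.1), Ccnb2 (3.26-fold, 1.13 to 12.9) and Cenpa, the centromere histone (2.46-fold, 1.27 to 5.22), were higher, 3 of 19 G2/M members beside 8.03% of all measured genes, and of the S members Gins2 alone was lower, as not listed, beside 6.92%. The MEF-2F side held 2 UMIs of Ccnb1 and 4 of Ccnb2. Most G2/M UMIs of MEF-3F were in its second block, 381 against 14 in the first. In PC-3F against PC-2F, Bub1 was 2.52-fold higher (1.38 to 4.66), 1 of 19 beside 3.76%, and Mcm3 2.04-fold lower (1.54 to 2.74), 1 of 13 beside 4.86%. The S sum was 1.33-fold lower (1.23 to 1.43) in PC-3F than in PC-2F, and the G2/M sums did not differ beyond counting error. Between the donors, 7 of 13 S and 12 of 19 G2/M members were lower in MEF than in PC, beside 17.6% of all measured genes, and 0 were higher, beside 13.5%; Ccnb2 (7.98-fold, 4.80 to 14.2), Ccnb1 (6.11-fold, 4.05 to 9.63) and Prim1 (5.35-fold, 2.57 to 12.9) led.

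The balance of the phases differed between libraries. S UMIs per G2/M UMI were 1.10 (0.995 to 1.22) in MEF, 0.890 (0.842 to 0.940) in PC-2F, 0.877 (0.833 to 0.922) in PC, 0.698 (0.643 to 0.759) in PC-3F, 0.625 (0.478 to 0.813) in MEF-2F, 0.527 (0.5 to 0.556) in pOPC and 0.473 (0.396 to 0.565) in MEF-3F. The ratio in both converted fibroblast libraries and in PC-3F was below that of the donor, and that of PC-2F overlapped PC. This rested on 1 block in each fibroblast library: the ratio was 0.446 (0.370 to 0.536) in the second block of MEF-3F but 1.21 (0.563 to 2.66) in the first, from 17 and 14 UMIs, and 0.566 (0.419 to 0.760) in the first block of MEF-2F but 0.957 (0.508 to 1.80) in the second. MEF-2F and MEF-3F overlapped pOPC on this ratio, although their S and G2/M sums were several fold lower.

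The share of cells with message of each phase was compared after each cell was thinned to 1000 UMIs, with 1 (PC-2F and PC-3F) to 39 (MEF-3F) shallower cells per library left out. A G2/M UMI was found in 90.5% of thinned cells in pOPC, 67.4% in PC, 50% in PC-2F, 43.8% in PC-3F, 27.9% in MEF, 23.8% in MEF-3F and 13.3% in MEF-2F. An S UMI was found in 91.4% in pOPC, 80.5% in PC, 65.7% in PC-2F, 54.1% in PC-3F, 48.8% in MEF, 27.0% in MEF-3F and 24.0% in MEF-2F. The S share was below that of the donor in all 4 converted libraries, with intervals that do not overlap. The G2/M share was below that of PC (61.4 to 73.0) in PC-2F (42.4 to 57.6) and PC-3F (35.6 to 52.3), although their summed levels were close to that of PC, while those of MEF-2F (6.58 to 23.2) and MEF-3F (16.5 to 32.3) overlapped MEF (20.4 to 36.5). A single UMI can come from RNA free in the droplets, and no library of resting cells was there to set that level. Cells with 3 or more different G2/M members were 71.6% (62.4 to 79.5) in pOPC, 30.3% (23.7 to 37.7) in PC-2F, 28.5% (23.1 to 34.3) in PC, 21.2% (14.9 to 28.8) in PC-3F, 13.2% (7.87 to 20.3) in MEF, 8% (2.99 to 16.6) in MEF-2F and 7.38% (3.43 to 13.5) in MEF-3F. By this count PC-2F and PC overlapped, and the difference lay in cells with 1 or 2 G2/M members: 1 member was seen in 24.0% of PC cells and 11.2% of PC-2F cells, and 2 in 15.0% and 8.43%.

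**Figure D4:**
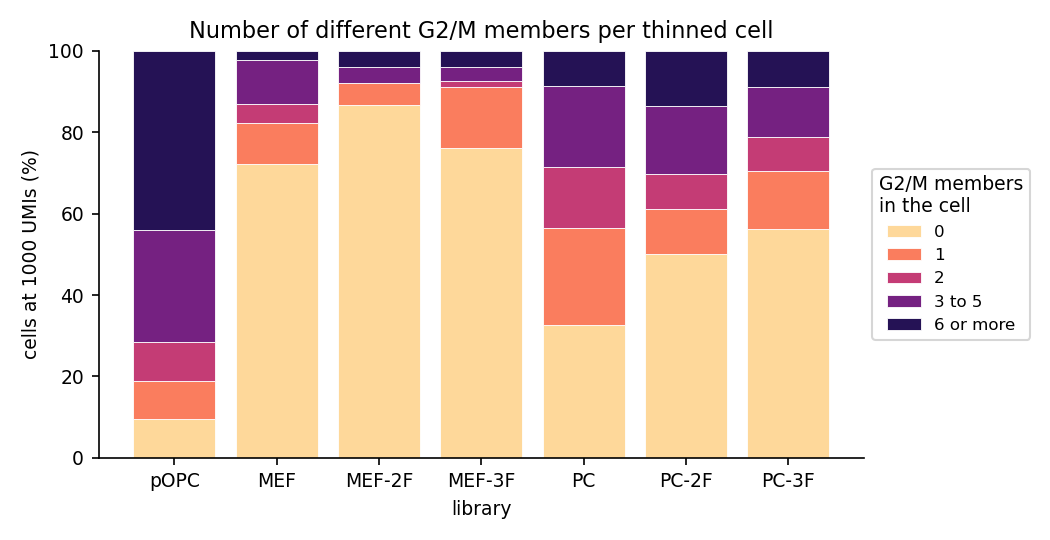
Share of cells thinned to 1000 UMIs (y axis, percent) that hold 0, 1, 2, 3 to 5, or 6 or more different G2/M members, in each library. In pOPC 44.0% of cells hold 6 or more, against 2.33% in MEF and 13.5% in PC-2F, and MEF-2F and MEF-3F are mostly cells with none.

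G2/M message was concentrated in few cells of the fibroblast libraries. The tenth of cells richest in G2/M UMIs held 88.2% of them in MEF-2F (9 cells), 86.6% in MEF-3F (17 cells) and 71.6% in MEF, against 51.5% in PC, 51.7% in PC-2F, 58.3% in PC-3F and 35.9% in pOPC. Values of G2/M members in MEF-2F and MEF-3F therefore rest on these few cells. S UMIs were less concentrated, at 70.5% in MEF-2F, 57.8% in MEF-3F and 33.7% in pOPC. In pOPC 82.8% of thinned cells held both S and G2/M members and 0.862% neither; in PC these shares were 57.3% and 9.36%, in PC-2F 42.1% and 26.4%, in PC-3F 30.8% and 32.9%, in MEF 22.5% and 45.7%, in MEF-3F 11.5% and 60.7% and in MEF-2F 10.7% and 73.3%. S members alone were found in 26.4% of MEF cells and 8.62% of pOPC cells. Cells with 6 or more G2/M members still held S message, with a mean of 2.49 S UMIs in pOPC, 2.13 in PC and 1.92 in each of PC-2F and PC-3F, against 4.18, 2.07, 1.01 and 0.866 in cells with no G2/M member.

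Single members followed the G2/M count of the cell in different ways. Rrm2 had 0.263 UMIs per thinned PC cell with 3 or more G2/M members and 0.0805 per cell with none; in PC-2F these were 0.259 and 0.0112, and in PC-3F 0.323 and 0.0244. In pOPC Rrm2 had 0.614 and 0.727, with few cells in the second group. Mcm6, another S member, was lower in cells with 3 or more G2/M members in PC (0.197 and 0.264) and PC-3F (0.161 and 0.220) and higher in PC-2F (0.296 and 0.169). Ccnd1 ran opposite to Rrm2 in the pericyte libraries. It had 0.382 and 0.759 UMIs per cell in PC, 0.352 and 0.697 for PC-2F, and 0.387 and 0.610 for PC-3F. In MEF it was Ccnd2 that was lower in cells with 3 or more G2/M members, 0.471 against 1.26 UMIs per cell, from 8 and 117 UMIs. In pOPC Ccnd1 stood at 0.892 and 1, with only 11 cells without a G2/M member. Cells within a library are not replicates, so these are descriptions.

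Cells of the converted libraries were also split by whether they held an Olig2 or Sox10 UMI, a split that uses no cell cycle gene. In PC-3F, 82 cells with such a UMI had 2635 CPM (2473 to 2804) of G2/M and 1785 CPM (1652 to 1926) of S members, and 65 cells without had 1573 (1424 to 1733) and 1178 (1049.7 to 1317). In PC-2F the G2/M sum was also higher in cells with the factors, 2498 CPM (2394 to 2605) against 1751 (1611 to 1899), but the S sum was lower, 1917 (1826 to 2011) against 2354 (2192 to 2525). In MEF-2F the 27 cells with a factor UMI had 1318 CPM (1088 to 1582) of G2/M and 791 (615 to 1001) of S members, against 259 (183 to 357) and 182 (119 to 267) in the other 55 cells. In MEF-3F the G2/M sums overlapped, 910.8 (808 to 1023) against 757 (622 to 912). Cells with a factor UMI were deeper in all 4 libraries, with medians of 2660 against 1863 UMIs in MEF-2F, 2684 against 1262 in MEF-3F, 6552 against 5757 in PC-2F and 4232 against 3625 in PC-3F. At 1000 UMIs a G2/M UMI was found in 15.4% and 12.2% of MEF-2F cells, 21.1% and 27.5% of MEF-3F cells, 56.2% and 45.6% of PC-2F cells and 51.2% (39.9 to 62.4) and 29.7% (18.9 to 42.4) of PC-3F cells, with overlapping intervals in all 4. Ccnd2 was lower in cells with a factor UMI in PC-3F, 45.4 CPM (26.5 to 72.7) against 418 (343 to 504), in MEF-3F, 144 (105 to 192) against 495 (388 to 624), and in MEF-2F, 80.2 (32.2 to 165) against 280.4 (200.3 to 382), and overlapped in PC-2F, 147 (122 to 174) against 195 (151 to 249). The blocks of MEF-3F differed in the same way. Ccnd2 and Olig2 stood at 542 and 155 CPM in the first block and at 185 and 372 in the second. The split was not made within blocks, so the part of the blocks was not tested. Pdgfrb, a pericyte gene, was 13.4 against 295 CPM in PC-3F and 24.3 against 237 in PC-2F along the same split.

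The CDK inhibitors, which hold back the cyclin kinases, differed from MEF in both directions, and few were called against PC. In MEF-2F 4 of 6 measured inhibitors were higher and 2 lower than in MEF, while MEF-3F had 3 higher and 2 lower. Against PC, 1 was higher and 1 lower for PC-2F, and 2 higher and 1 lower for PC-3F. The shares of all measured genes higher and lower were 19.1% and 11.4% in MEF-2F, 21.5% and 10.7% in MEF-3F, 17.1% and 10% for PC-2F, and 17.8% and 12.1% for PC-3F. Cdkn1a, which encodes p21, the p53 target that blocks CDK2, stood at 1175 CPM (1100.4 to 1253) in MEF, 431 in MEF-2F, 339 in PC, 293 in PC-2F, 285 in pOPC, 257 in MEF-3F and 255 in PC-3F, so that MEF stood alone. Cdkn2b, which encodes the CDK4 inhibitor p15, stood at 161 CPM in MEF, 41.5 in MEF-3F, 26.1 in MEF-2F and 7.74 in PC, and was not listed in the other 3 libraries. It reached the mean of 20 CPM through MEF, so its calls as lower than MEF are drawn from the library that let it pass. It was also the inhibitor called lower in PC-2F and PC-3F, as not listed there against 10 UMIs in PC. Cdkn1a was lower than in MEF by 2.73-fold (2.22 to 3.39) in MEF-2F and 4.56-fold (3.76 to 5.57) in MEF-3F. Cdkn2b was lower by 6.16-fold (2.75 to 17.1) in MEF-2F and 3.88-fold (2.38 to 6.65) in MEF-3F. Cdkn1b, which encodes p27, a brake on the progenitor cycle, was higher than in the donor in all 4: 5.34-fold (2.85 to 10.3) in MEF-2F, 4.21-fold (2.39 to 7.75) in MEF-3F, 2.69-fold (1.88 to 3.91) in PC-2F and 4.53-fold (3.15 to 6.63) in PC-3F. Its level in pOPC, 96.5 CPM (73.8 to 124), overlapped those of MEF-2F, MEF-3F and PC-2F. Cdkn2c, which encodes p18, was highest in pOPC (285 CPM), and was higher than in the donor in MEF-2F (5.62-fold, 3.22 to 10), MEF-3F (3.92-fold, 2.33 to 6.79) and PC-3F (2.73-fold, 2.00 to 3.75). Cdkn1c, which encodes p57, stood at 148 CPM in MEF-2F, 137 in MEF-3F, 67.1 in MEF and 6.32 to 17.3 CPM in the other 4 libraries. Cdkn2d was higher than in MEF in MEF-2F alone (4.08-fold, 1.99 to 8.48). Cdkn2a was not listed in PC-2F or PC-3F and stood at 39.3 CPM in MEF-3F, 30.4 in MEF-2F, 29.1 in MEF, 16.2 in PC and 7.91 in pOPC.

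**Figure D5:**
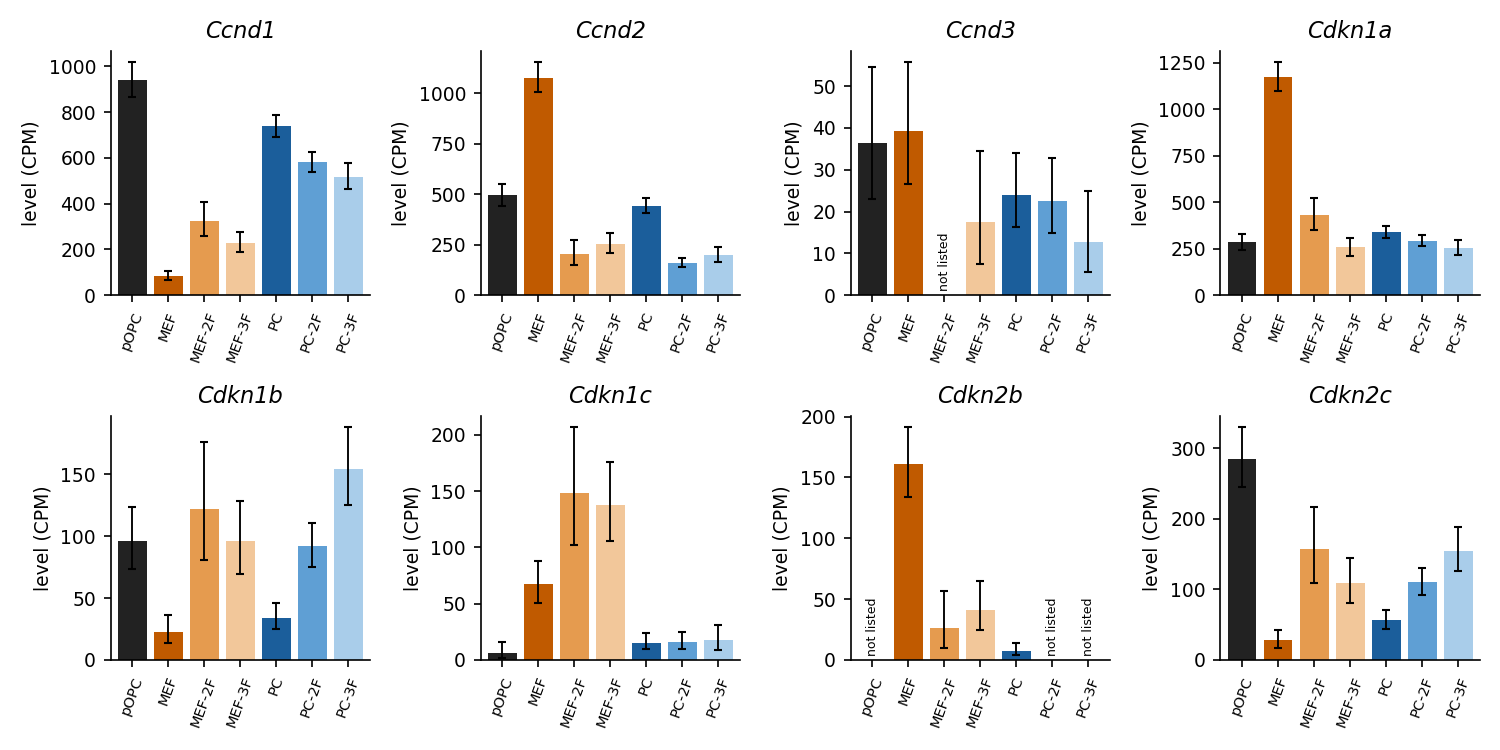
Level in CPM (y axis, from 0, with a scale of its own in each panel) of the 3 D cyclins and 5 CDK inhibitors in each library; lines are exact 95% counting intervals, and libraries where a gene was not listed are marked. Ccnd1 is lowest and Ccnd2 and Cdkn1a are highest in MEF, and Cdkn1b is above the donor in all 4 converted libraries.

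Of 13 measured restriction point genes, 0 were higher and 1 lower in MEF-2F than in MEF, while MEF-3F had 2 higher and 4 lower. Against PC, 3 were higher and 2 lower for PC-2F, and 2 higher and 2 lower for PC-3F. Against the all-gene shares just given, 4 of 13 lower in MEF-3F was above 10.7%, and 0 and 2 of 13 higher in MEF-2F and MEF-3F were below 19.1% and 21.5%. In MEF-2F the lower gene was E2f7, at 4.35 against 31.6 CPM. E2f7 and E2f1 led in MEF-3F, each with 1 UMI (14.5-fold, 2.37 to 595, and 12.8-fold, 2.06 to 527), with Cdk6, the D cyclin partner, 4.93-fold lower (2.55 to 10.7). E2f8, a repressor among the E2Fs, was lower in both pericyte libraries, 3.70-fold (2.92 to 4.73) and 3.32-fold (2.47 to 4.53), E2f1 in PC-3F by 2.75-fold (1.63 to 4.91), and Cdk2 was higher in both, 2.05-fold (1.5 to 2.84) and 2.53-fold (1.79 to 3.59). Foxm1, the activator of G2/M genes, stood at 112 CPM in pOPC, 108 in PC, 80.1 in PC-2F, 69.3 in PC-3F, 26.1 in MEF-2F, 20.3 in MEF and 15.3 in MEF-3F, so that the 3 fibroblast libraries were lowest and PC overlapped pOPC.

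Of 16 measured replication genes outside the members, 6 were lower and 1 higher in MEF-3F than in MEF, beside 10.7% and 21.5% of all measured genes, and 9 were not called. The lower ones were led by Gmnn, the licensing inhibitor geminin (17.4-fold from 1 UMI, 2.89 to 710), and Hells (7.25-fold from 2 UMIs, 1.81 to 63.2), and Mcm10 was lower as not listed. In MEF-2F, 1 of 16 was lower, Orc6 (3.32-fold, 1.34 to 10.6), and 0 higher. In PC-2F 1 was lower, Hells (2.12-fold, 1.54 to 2.94), and in PC-3F 3 were lower, Hells (2.66-fold, 1.71 to 4.30), Pold1 and Cdt1, and 1 higher, Rpa2 (2.48-fold, 1.61 to 3.85). Of 31 other measured mitosis genes, 2 were lower and 1 higher in MEF-2F, while MEF-3F had 5 lower and 4 higher. Both converted pericyte libraries had 3 lower and 0 higher. Except for 5 of 31 lower in MEF-3F, these counts were near or below the shares of all measured genes, 11.4% lower and 19.1% higher in MEF-2F, 10.7% and 21.5% in MEF-3F, 10% and 17.1% for PC-2F, and 12.1% and 17.8% for PC-3F. Cks1b, a CDK subunit, was lower in both fibroblast libraries (3.00-fold, 1.82 to 5.26, and 3.08-fold, 2.11 to 4.61), and Tuba1c, a tubulin also used outside division, in both pericyte libraries (3.09-fold, 2.49 to 3.86, and 2.74-fold, 2.10 to 3.63). Against pOPC 28 of the 31 were lower in each converted fibroblast library, beside 21.1% (2 factors) and 16.6% (3 factors) of all measured genes. In each converted pericyte library 22 were lower, beside 16.7% (2 factors) and 17.8% (3 factors). The donors already stood below pOPC, with 26 of the 31 lower for MEF (28.7% of all measured genes) and 17 for PC (23.7%). Tuba1c was higher than in pOPC in each converted library. The lists were not compared by a test.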

How the data were processed

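Single cells of 7 populations, 1 library each, were measured by 3′ counting with cell barcodes and UMIs. Per the submitters' processing notes, the authors used STAR 2.5.3a with mm10, Subread featureCounts 1.6.1, UMI-tools 0.5.3 and bcl2fastq 2.19.1.403; strand use in counting is not given in the sources used here, so reads of overlapping genes cannot be told apart. The deposited values are in another unit than counts: each behaves as the place of a UMI count in a list sorted as text, which is inferred here and stated in no label. Counts were recovered from that order within each block of barcodes, and every count held by a member was placed with probability 1 under that model; the recovery was tested on simulated data.

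Cells with 500 UMIs or more and less than 20% mitochondrial UMIs were kept (1124 of 1140). No doublet caller was run; leaving out the deepest 5% of cells of each library is an alternative. Levels are CPM from sums over each library's cells, with totals of 229938 to 1292320 UMIs. Intervals are exact 95% intervals (Poisson for levels, conditional binomial for ratios, Clopper-Pearson for shares); UMIs of 1 library are no replicates, so they cover counting error only. A log2 ratio adds 0.5 UMI to each count. A gene not listed in a library was read as 0 UMIs in counts and medians and is given no fold. Genes with a mean of 20 CPM or more over the 7 libraries were measured (7996 of 17784). Named genes are 12 members given throughout, the 3 called members of each phase with the largest ratio in each direction, and the CDK inhibitors and the largest called ratios of the other lists. The members and lists were chosen with earlier results of these data known. Alternatives changed the scaling, the fold, the cells, the blocks, the members and the reading of the deposited values. Python 3.11.15, numpy 2.4.6, pandas 2.3.3 and scipy 1.17.1 were used.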

Additional observations from a re-analysis of the deposited data

Results flagged for a closer look

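Ccnb2 differed in direction between the donors: its log2 ratio was 1.47 in MEF-3F against MEF and -1.06 in PC-3F against PC. Pold1, a subunit of DNA polymerase delta, did so too, at 1.49 in MEF-3F against MEF (15 against 9 UMIs) and -1.26 in PC-3F against PC (16 against 80 UMIs). With 1 library per population each direction rests on 1 library, and the difference between the donors was not tested. With the first block of MEF-3F alone the Ccnb2 ratio was -1.92.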

How the results depend on the processing

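No paired analysis was possible because each population is 1 library. Depth limits MEF-2F and MEF-3F most, where several calls rest on 1 to 3 UMIs. Values below are log2 ratios of summed levels to the donor, or numbers of members called, and for each the cause was not tested. Over all settings, 72 phase sums stayed within their counting interval and 36 moved outside it, and 167 counts stayed within 1.5 times and 41 did not.

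With 1 UMI for every entry above 0, the S ratio was -0.99 in MEF-3F, then -0.36 for PC-2F and -0.62 for PC-3F, and the G2/M ratio -0.47, -0.34 and -0.42. With the values as deposited, S was -1.62 in MEF-2F, -2.18 in MEF-3F and -0.23 in PC-2F. Scaled by a trimmed mean, S was -1.60 and G2/M -0.78 in MEF-2F (a shift of every ratio by -0.33), then -1.65 and -0.43 for MEF-3F (-0.36), -0.18 and -0.20 for PC-2F (-0.08), and -0.62 and -0.29 for PC-3F (-0.12). Without the deepest 5% of cells, S was -0.92 in MEF-3F, then -0.24 for PC-2F and -0.73 for PC-3F, and G2/M 0.064 in PC-2F. With the first block only, MEF-3F had -2.41 for S and -2.55 for G2/M, PC-2F -0.016 and 0.25, and the G2/M ratio of PC-3F was 0.19. With the second block only, G2/M was -0.95 in MEF-2F and 0.19 in MEF-3F. As a mean CPM per cell, G2/M was -0.76 in MEF-2F, -0.30 in MEF-3F, 0.066 for PC-2F, and S -0.65 for PC-3F. Without the highest member of each phase, S was 0.017 and G2/M -0.27 in PC-2F, and G2/M -0.34 in PC-3F. Without the cell with the most UMIs of the phase, an alternative chosen after seeing the data, G2/M was -0.83 in MEF-2F.

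In MEF-2F the count of S members called lower (7) became 3 at 4-fold, 4 without the deepest cells and 2 with the second block, and that of G2/M members lower (4) became 2 at 4-fold, 7 with the trimmed mean, 2 without the deepest cells, 2 with 1 UMI per entry, 2 with the first block and 0 with the second. In MEF-3F, S members lower (8) became 4 at 4-fold, S members higher (0) became 1 without the deepest cells, G2/M members lower (3) became 5 at 1.5-fold, 5 with the trimmed mean and 6 with the first block, and G2/M members higher (3) became 0 at 4-fold, 1 with the trimmed mean, 0 with 1 UMI per entry and 0 with the first block. In PC-2F, S members lower (0) became 2 at 1.5-fold and 1 without the deepest cells, G2/M members lower (2) became 5 at 1.5-fold, 0 at 4-fold, 1 without the deepest cells, 0 with 1 UMI per entry and 1 with the first block, and G2/M members higher (1) became 3, 0, 2, 0 and 5 in the same order. In PC-3F, S members lower (1) became 4 at 1.5-fold, 0 at 4-fold, 2 with the trimmed mean, 5 without the deepest cells and 0 with the first block, G2/M members lower (2) became 5 at 1.5-fold, 0 at 4-fold, 1 with 1 UMI per entry and 0 with the first block, and G2/M members higher (0) became 3 at 1.5-fold and 4 with the first block.

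Single genes turned in direction only with blocks: Ccne1 in MEF-2F to 0.028 with the second block, and Cenpe, Ccnb1 and Ccnb2 in MEF-3F to -1.12, -2.55 and -1.92 with the first.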
